A study of Mus musculus with 9 samples.

Results

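Nuclear receptors are transcription factors whose activity can be switched by small fat-soluble ligands, and coregulators are the proteins they recruit. The genes described here are 36 of them: 31 nuclear receptors outside the REV-ERB, ROR, androgen, corticosteroid and vitamin D receptors, and 5 coregulators. They were taken by gene symbol from the 23282 gene rows of a kidney study with 9 libraries, and all 36 were found. Testing asked for an adjusted read number x of 10 or more in 4 or more libraries, a filter that 32 of the 36 and 13481 genes in all passed. The study set mice lacking Bmal1, labelled Bmal1 -/- (5 knockout libraries), against wild-type mice (4 libraries), all of strain C57BL/6, with kidney as the tissue. Bmal1 (gene symbol Arntl) is the activator at the head of the circadian clock, and the series title places the work in chronic kidney disease. The labels name no Cre driver and no transgene, and they do not give the deleted exons, sex, age or hour of sampling, or whether each library is a separate animal, so p-values measure only the spread between these libraries.

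A typical nuclear receptor binds DNA half-sites related to AGGTCA, often as a pair with an RXR, and many have a lipid, sterol, retinoid or hormone as ligand. With ligand bound, the receptor holds p160 coactivators, which bring histone acetylation, and without it several receptors hold corepressor complexes built on NCOR1. In the kidney, HNF4A and HNF4G shape the proximal tubule, the estrogen-related receptors drive mitochondrial genes, and the farnesoid X receptor governs bile acid handling. REV-ERB, the nuclear receptor arm of the clock, also represses through NCOR1. BMAL1 with its partner binds the E-box CACGTG.

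Values are log2(x + 1), where x is a read number that the authors had adjusted between libraries. The kit reads a tag near the 3′ end of each transcript, so levels of different genes can be set side by side without a length correction. Back-transformed library totals ran from 11765200 to 12936900 in knockout and from 12407300 to 13486400 in wild type, and the raw depth is unknown. The ribosomal precursor Rn45s took 6.83% to 14.4% of knockout reads and 5.07% to 11.3% of wild-type reads (exact permutation p = 0.175, two-sided), and globin took 0.897% to 3.56% of knockout and 0.619% to 1.54% of wild-type reads (exact permutation p = 0.167). Arntl itself averaged 5.85 ± 0.13 in knockout and 6.69 ± 0.33 in wild type (SD, n = 5 and 4), a difference of -0.84 (SE 0.21, limma adjusted p = 0.0112). Every knockout library lay below every wild type, at most 5.985 against at least 6.26. A 3′ tag outside the deleted part would still be read, so the level left in knockout does not measure the deletion. Proximal tubule markers were all detected, while 3 of 7 adrenal cortex markers were at 0 in every library.

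Of the 32 tested genes, 3 rose in knockout kidney and 5 fell, which is 9.38% and 15.6% of them. Over all tested genes 6.16% were called higher and 8.2% lower, 14.4% in either direction (limma, adjusted p under 0.05). The genes that rose were the thyroid hormone receptor Thra, the fatty acid receptor Ppard and the xenobiotic receptor Nr1i2. Those that fell were the liver X receptor Nr1h3, the farnesoid X receptor Nr1h4, the retinoid X receptor Rxra and the p160 coactivators Ncoa2 and Ncoa3. The median difference of the 32 was -0.09, against 0.00 over all tested genes, and the 24 tested genes without a call ran from -0.48 to 0.91. In 6 of the 32 the genotypes did not overlap in any library (background 14.3%), 2 with knockout above (background 5.86%) and 4 with knockout below (background 8.46%). At an unadjusted limma p under 0.05 there were 11 of 32, against 27.5% of all tested genes. The number that fell depended on single libraries: it was 3 without knockout 2, knockout 4 or wild type 1, and 2 without wild type 3 or wild type 4. It also depended on scaling, with 1 to 3 genes lower under the other 4 scalings, which moved the share of higher calls over all genes to between 50.7% and 64.7%, against 42.9% as deposited. Scaling to the total without Rn45s moved the median of all genes to 0.10, so small decreases given here are relative to the deposited scaling.

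**Figure D1:**
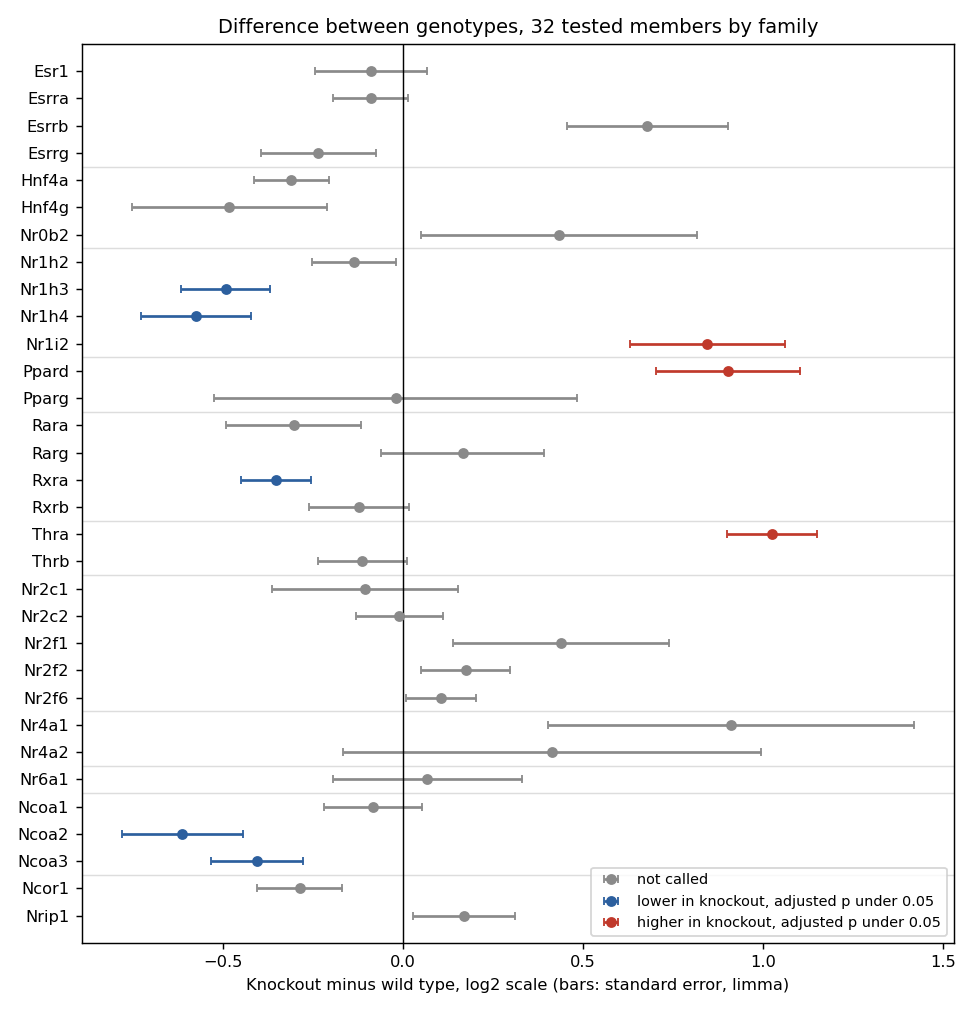
Difference between genotypes (knockout minus wild type, log2 scale, horizontal axis) of the 32 tested nuclear receptor and coregulator genes, ordered by family, with bars for the limma standard error. Thra, Ppard and Nr1i2 are called higher, and Nr1h3, Nr1h4, Rxra, Ncoa2 and Ncoa3 lower; the called differences run from -0.61 to 1.02.

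Averaged over the 9 libraries, Hnf4a (12.34), the corepressor Ncor1 (12.30) and the orphan receptor Nr2f2 (12.14) stood at the top, and these neighbours differed by less than their spread between libraries. Esrra (10.38), Nr1h4 (10.18) and Nr2f6 (10.07) came next. Esrra shares 73 exon bases at its 3′ end with Trmt112 on the other strand, which averaged 10.06, so the level of Esrra is uncertain in that respect. The 4 genes below the filter were Rxrg, Nr4a3, Nr5a2 and Nr1i3. The tested gene nearest to the filter was Nr4a2, with x of at least 10 in 6 libraries, and Rxrg and Nr4a3 reached it in 2 each.

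**Figure D2:**
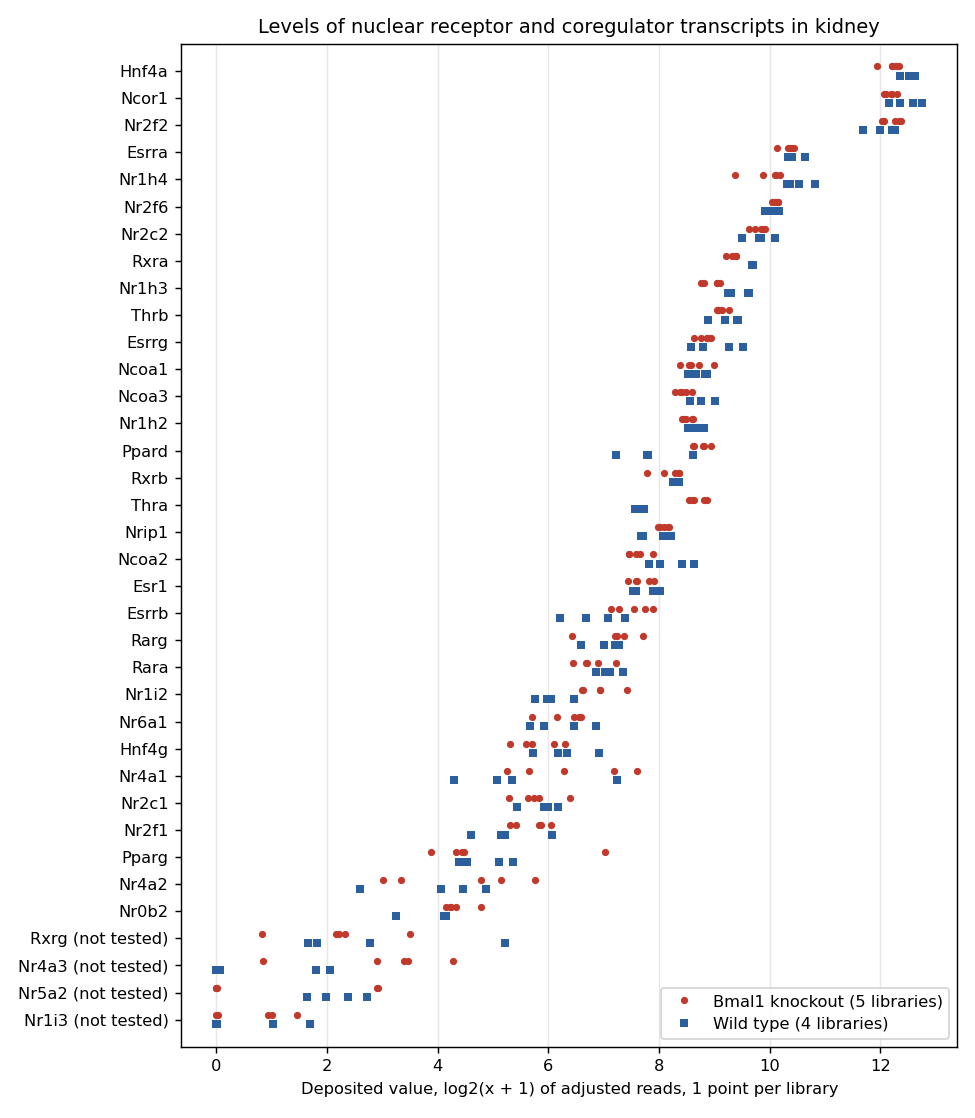
Deposited values of all 36 genes, log2(x + 1) on the horizontal axis, with 1 point per library (circles for the 5 knockout libraries, squares for the 4 wild types), ordered by mean. Hnf4a, Ncor1 and Nr2f2 lie near 12, while the 4 genes marked as not tested lie at the bottom.

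Thyroid hormone receptors bind T3 and are encoded by Thra and Thrb. Thra (chromosome 11, 98740638 to 98769006, + strand, GRCm38) rose about 2-fold. Its values were 8.62, 8.55, 8.87, 8.81 and 8.59 in knockout 1 to 5, against 7.72, 7.56, 7.64 and 7.73 in wild type 1 to 4. Every knockout lay above every wild type, with a gap wider than the range within either genotype. The difference was 1.02 on the log2 scale, a 2.03-fold change (SE 0.13, limma adjusted p = 1.82e-05), and all 22 alternative analyses called it, with adjusted p of at most 0.000445. Thrb, its paralog, averaged 9.12 ± 0.09 in knockout and 9.23 ± 0.26 in wild type (SD, n = 5 and 4; difference -0.11, SE 0.12, limma adjusted p = 0.609). Thra thus lay 0.26 to 0.51 below Thrb in knockout libraries and 1.32 to 1.79 below it in wild types, on the log2 scale.

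Thra lies tail to tail with the clock gene Nr1d1, which encodes REV-ERBα. In the GENCODE annotation of GRCm38 their exons share 263 bases on opposite strands, among them the 3′ end of a coding Thra transcript, where the tags of this kit fall. Nr1d1 moved the other way: it was at 6.97, 6.67, 6.69, 7.03 and 6.83 in knockout and 8.45, 8.48, 8.84 and 8.485 in wild type (difference -1.72, SE 0.15, limma adjusted p = 2.25e-07). Mean x over the group was 413 for Thra and 114 for Nr1d1 in knockout, against 202 and 379.9 in wild type. The strand setting is not given in the sources used here, so the split of reads in the shared stretch is uncertain, and its part in the rise of Thra was not tested. Thrb also has a REV-ERB neighbour, Nr1d2, 165963 bases away on chromosome 14 with no shared exon base; Nr1d2 fell by 3.46 (SE 0.18, limma adjusted p = 3.50e-10) while Thrb had no call.

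PPARδ and PPARγ are fatty acid receptors that work as pairs with RXR. Ppard (chromosome 17, 28232700 to 28301474, + strand, GRCm38) rose. Knockout values were 8.81, 8.94, 8.64, 8.61 and 8.80, against 8.62, 7.215, 7.79 and 7.799 in wild type. The genotypes overlapped through wild type 1 alone, which lay among the lower knockouts, while the other wild types were well below. The difference was 0.90, a 1.87-fold change (SE 0.20, limma adjusted p = 0.00480), and 22 of 22 alternatives called it. Pparg, the receptor of fat cells and collecting duct, was at 4.45, 4.475, 4.33, 3.875 and 7.02 in knockout and 5.11, 4.54, 5.36 and 4.39 in wild type. Only knockout 5 was high, and without it the difference was -0.57 (limma adjusted p = 0.366), against -0.02 with it (SE 0.50, adjusted p = 0.984).

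Markers of fat and of urothelium were high in the same library. The summed x of 7 adipocyte markers was 11453 in knockout 5 and 1651 to 3724 in the other knockouts, against 1198 to 2593 in wild types, and none of the 7 was at 0 in every library. Most of each sum came from Fabp4, so the sum stands mainly for this gene. Its x ran from 1198 to 8202 over the libraries, highest in knockout 5, and it had no call (0.74, SE 0.34, limma adjusted p = 0.163). Adiponectin, Adipoq, was at 0, 6.44, 2.82, 4.69 and 9.06 in knockout 1 to 5 and at most 2.69 in wild type. Ucp1, the uncoupling protein of brown fat, was at 0, 7.003, 2.60, 2.25 and 10.29 in knockout and at most 2.43 in wild type. These 2 genes were named after their values were seen, and both were highest in knockout 5 and next highest in knockout 2. The summed x of 7 urothelium markers was 956 in knockout 5 and 265 to 371 in the other knockouts, against 52.6 to 173 in wild types. Of the 6 tested urothelium markers 5 rose, beside 6.16% of all tested genes. The part of either tissue in the Pparg value was not tested, and in bulk kidney RNA fewer cells of a type and less RNA per cell cannot be told apart.

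Receptors for oxysterols, bile acids and foreign compounds moved in different directions. Nr1h3, which encodes LXRα, the oxysterol receptor that turns on cholesterol export, was at 9.05, 9.09, 8.805, 8.75 and 9.05 in knockout and 9.60, 9.62, 9.295 and 9.25 in wild type. All knockouts lay below all wild types. It fell by 0.49 (SE 0.12, limma adjusted p = 0.0115), and 21 of 22 alternatives called it, the exception leaving out wild type 2 and knockout 4 together (-0.38, adjusted p = 0.0661). Nr1h2, for the related LXRβ, averaged 8.51 ± 0.09 in knockout and 8.65 ± 0.13 in wild type (SD, n = 5 and 4; limma adjusted p = 0.495).

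Nr1h4, the farnesoid X receptor FXR, is the bile acid sensor and one of the more abundant genes of the group. Its values were 9.87, 9.36, 10.12, 10.10 and 10.19 in knockout, against 10.82, 10.37, 10.30 and 10.52 in wild type. The highest knockout lay just below the lowest wild type. It fell by 0.57 (SE 0.15, limma adjusted p = 0.0167). The call was lost without wild type 1 (adjusted p = 0.0669) and when Rn45s was a covariate (0.0614), among 5 of 22 alternatives. Of 10 tested markers of the proximal tubule, a site where FXR is made, 3 fell, none rose and 7 had no call. Their single differences ran from -1.32 to 0.17, and over all tested genes 8.2% fell. The summed x of the 10 markers was 415831 to 450196 in knockout and 574702 to 784320 in wild type. Kap, the most abundant marker, had -0.67 (SE 0.23, limma adjusted p = 0.0604), and without it the sums were 68518 to 83100 and 89154 to 113513. The part of the proximal tubule in this decrease was not tested.

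Nr1i2, the pregnane X receptor PXR that induces drug-metabolizing enzymes in liver and gut, rose. It was at 6.925, 6.93, 7.42, 6.63 and 6.62 in knockout and 6.46, 6.05, 5.75 and 5.97 in wild type. Every knockout lay above every wild type, by a narrow margin at wild type 1. The difference was 0.85, a 1.80-fold change (SE 0.21, limma adjusted p = 0.0126), called in 22 of 22 alternatives. Nr1i3, the related receptor CAR, was below the filter with x of at most 2.22 in any library, and 3304 of its exon bases are shared with Tomm40l on the other strand.

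The retinoid X receptors are the shared partners of most receptors above, and the retinoic acid receptors RARα and RARγ bind vitamin A acid. Rxra was at 9.385, 9.21, 9.37, 9.385 and 9.31 in knockout and 9.68, 9.68, 9.70 and 9.68 in wild type. The wild types lay within a range far narrower than that of the knockouts, and all knockouts were below them. Rxra fell by 0.35 (SE 0.10, limma adjusted p = 0.0214). The call was lost without knockout 2 (0.0562), wild type 3 (0.0510) or wild type 4 (0.05395) and under all 4 other scalings (0.06855 to 0.104), with a negative difference each time. Rxrb averaged 8.18 ± 0.25 in knockout and 8.30 ± 0.04 in wild type, Rara 6.79 ± 0.29 and 7.09 ± 0.20, and Rarg 7.19 ± 0.47 and 7.02 ± 0.31 (SD, n = 5 and 4; limma adjusted p = 0.618, 0.319 and 0.686). Rxrg, below the filter, was at 0.83, 2.21, 2.33, 2.16 and 3.49 in knockout and 1.82, 5.22, 2.78 and 1.66 in wild type, so that wild type 2 alone stood high.

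Coregulators of the p160 family link receptors to histone acetylation, and 2 of the 3 fell, beside 8.2% of all tested genes. Ncoa2 (chromosome 1, 13139105 to 13374083, - strand, GRCm38), which encodes TIF2, was at 7.46, 7.58, 7.88, 7.45 and 7.66 in knockout and 8.02, 7.82, 8.42 and 8.625 in wild type. Knockout 3 lay above wild type 2 and the others did not overlap. It fell by 0.61 (SE 0.17, limma adjusted p = 0.0207), called in 14 of 22 alternatives and lost without knockout 4 (0.0507), wild type 3 (0.0698) or wild type 4 (0.0922). Ncoa3, for SRC-3, was at 8.285, 8.38, 8.49, 8.41 and 8.595 in knockout and 8.76, 8.55, 9.01 and 9.02 in wild type, with wild type 2 inside the knockout range. It fell by 0.41 (SE 0.13, limma adjusted p = 0.0425), but 14 of 22 alternatives lost the call, among them leaving out each library except wild type 2 and knockout 5 (0.0622 to 0.138). Ncoa3 shares 154 exon bases at its 3′ end with Sulf2 on the other strand, which had -0.37 (SE 0.20, limma adjusted p = 0.253), so its value is uncertain in that respect.

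Ncoa1, the remaining p160 gene, averaged 8.64 ± 0.23 in knockout and 8.73 ± 0.16 in wild type (SD, n = 5 and 4; limma adjusted p = 0.745). Both corepressors were without a call. Ncor1, the scaffold of the histone deacetylase complex that REV-ERB and unliganded thyroid hormone receptors use, averaged 12.17 ± 0.09 and 12.46 ± 0.27 (SD, n = 5 and 4; difference -0.29, SE 0.12, limma adjusted p = 0.119). Nrip1, which encodes the ligand-dependent corepressor RIP140, averaged 8.09 ± 0.09 and 7.92 ± 0.26 (adjusted p = 0.482 by limma, SD and n as before). Among other coactivators 1 of 13 tested genes rose, the arginine methyltransferase Prmt1 (0.57, SE 0.13, limma adjusted p = 0.00802), and none fell, with a list median of -0.16 (6.16% higher and 8.2% lower over all tested genes). Among other corepressors 1 of 10 fell, Tbl1xr1 of the NCOR complex (-0.36, SE 0.11, limma adjusted p = 0.0315, called in 8 of 22 alternatives), and none rose, with a median of -0.04. Both shares lie near those over all genes.

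**Figure D3:**
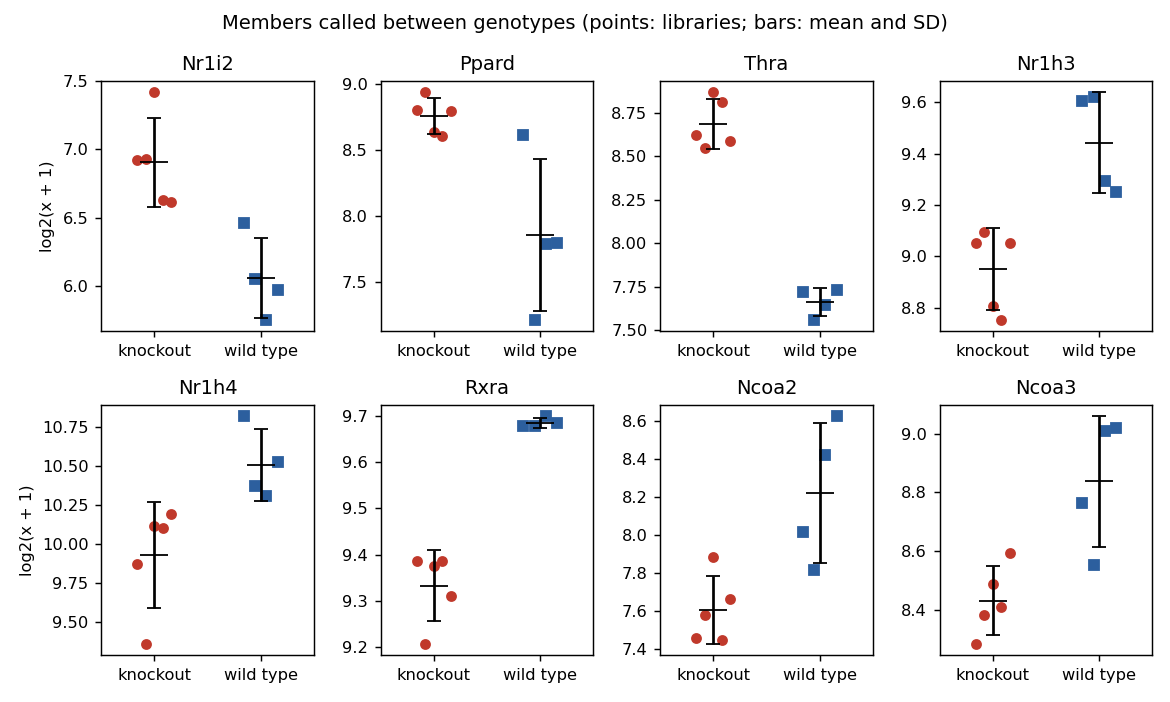
Deposited values, log2(x + 1) on the vertical axes (each panel with its own range), of the 8 called genes, with knockout on the left and wild type on the right of each panel; points are libraries, and bars give mean and SD (n = 5 and 4). Thra shows the widest gap, and Ppard, Ncoa2 and Ncoa3 overlap through 1 or more libraries.

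Promoter sequences in RefSeq (GRCm38.p6, 250 bases before to 50 after each annotated start) were matched by symbol for 32 of the 36 genes, with 54 promoters; the other 4 were Hnf4g and the called genes Thra, Ncoa2 and Ncoa3. Motifs were searched on both strands. The E-box CACGTG was found in promoters of 4 of the 32 genes (Nr0b2, Nr1i3, Rara and Thrb), beside 8.09% of all 27025 genes with a promoter. It was in 5 of the 54 promoters and in 7.15% of all 32851 promoters. The Rara promoters with a match overlap and hold the same site, which is thus counted more than once. None of the 3 tested genes with an E-box was called, and Nr1i3 was not tested. The D-box TTANNTAA was found in 2 of the 54 (Nr1h4 and Pparg) and in 6.00% of all promoters. The receptor half-site AGGTCA was found in 10 of the 54, from 9 genes, and in 16.3% of all promoters. The ROR-type site TAGGTCA, which contains the half-site, was in none of the 54 and in 2.61% of all. A match is a description of letters in this window, not a binding site. The E-box windows are shown with CACGTG in capitals, since this is the site BMAL1 binds. The windows of Rara and Thrb belong to internal starts and lie inside the annotated genes.
Nr0b2 (chr4:133553169-133553198, + strand): tgatagcaaggcCACGTGgagcttccagtg
Thrb (chr14:17981439-17981468, + strand): tcatttcctaatCACGTGgaaagaggttaa
Rara (chr11:98937696-98937717, + strand): tttcagcctctgCACGTGactc
Nr1i3 (chr1:171213720-171213743, + strand): aaactgCACGTGaaaaagcttgcc

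Among the called genes with a RefSeq promoter, Rxra and Nr1h4 held a receptor half-site, the sequence through which these families bind DNA. The 120 bases before a start of Rxra and a 120-base stretch before a start of Nr1h4 are shown 5′ to 3′ on the gene's strand. Both starts are internal ones, and both stretches lie inside the annotated gene. In GRCm38 Rxra spans 27676440 to 27762957 on chromosome 2, and Nr1h4 spans 89454234 to 89533585 on chromosome 10. The half-site (AGGTCA, or TGACCT where it lies on the other strand) and the D-box are in capitals.
Rxra (chr2:27709172-27709291, + strand): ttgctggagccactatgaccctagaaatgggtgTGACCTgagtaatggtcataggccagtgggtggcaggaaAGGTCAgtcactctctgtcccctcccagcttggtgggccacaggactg
Nr1h4 (chr10:89506759-89506878, - strand): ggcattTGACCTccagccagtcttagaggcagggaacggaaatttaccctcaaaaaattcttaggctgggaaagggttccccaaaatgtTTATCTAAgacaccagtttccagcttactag

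The estrogen and estrogen-related receptors had no call. Esrrb, for ERRβ, came nearest, at 7.56, 7.13, 7.27, 7.75 and 7.89 in knockout and 6.22, 6.675, 7.39 and 7.09 in wild type. Wild type 3 lay within the knockout range, and the difference was 0.68 (SE 0.22, limma adjusted p = 0.0504). It passed the threshold in 8 of 22 alternatives, with adjusted p of 0.0176 without wild type 3. Esrra, the abundant ERRα that works with PGC-1 coactivators on mitochondrial genes, averaged 10.34 ± 0.12 in knockout and 10.43 ± 0.15 in wild type (SD, n = 5 and 4; limma adjusted p = 0.627). Esrrg averaged 8.81 ± 0.12 and 9.04 ± 0.43, and the estrogen receptor Esr1 7.67 ± 0.19 and 7.76 ± 0.24 (SD, n = 5 and 4; limma adjusted p = 0.374 and 0.765).

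Hnf4a, the regulator of proximal tubule identity, was at 12.335, 12.285, 12.21, 11.95 and 12.22 in knockout, against 12.51, 12.35, 12.63 and 12.54 in wild type. All knockouts lay below all wild types, knockout 1 by a small margin, yet the gene missed the threshold (-0.31, SE 0.10, limma adjusted p = 0.0550). It was called without wild type 2 (0.0275) and without knockout 1 (0.0449), and in no other alternative of the 22. The summed x of the proximal tubule markers given above was lower in every knockout library than in every wild type, with or without Kap. Of these 10 markers 7 had no call, and their part in the Hnf4a values was not tested. Hnf4g averaged 5.80 ± 0.40 in knockout and 6.28 ± 0.49 in wild type (SD, n = 5 and 4; limma adjusted p = 0.266). Nr0b2, the DNA-binding-deficient repressor SHP that FXR induces in liver, averaged 4.35 ± 0.26 and 3.91 ± 0.44 (SD, n = 5 and 4; limma adjusted p = 0.506).

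The orphan receptors of the testicular and COUP groups had no call among 5 tested genes. Nr2f2 (COUP-TFII), a factor of veins, lymphatics and stroma, averaged 12.21 ± 0.15 in knockout and 12.04 ± 0.26 in wild type, and Nr2f1 (COUP-TFI) 5.69 ± 0.31 and 5.25 ± 0.60 (SD, n = 5 and 4; limma adjusted p = 0.392 and 0.375). Endothelial markers were higher in 3 of 8 cases, with overlapping summed x of 4409 to 7868 in knockout and 3509 to 4735 in wild type. Fibroblast, pericyte and smooth muscle markers were higher in 2 of 9, with sums of 4118 to 6662 and 3508 to 3867. Over all tested genes 6.16% were higher, and the part of these tissues in the Nr2f2 and Nr2f1 values was not tested. Nr2f6, Nr2c1 and Nr2c2 differed by 0.10, -0.10 and -0.01 (SE 0.10, 0.26 and 0.12, limma adjusted p = 0.531, 0.841 and 0.969). Nr2c2 and Nr2f6 share 4590 and 1622 exon bases with Mrps25 and Ocel1 on the other strand, so their values are uncertain. Nr6a1, the germ cell nuclear factor, differed by 0.07 (SE 0.26, limma adjusted p = 0.901). Nr5a2, which encodes LRH-1, was below the filter, at 0, 2.93, 0.005, 2.91 and 0 in knockout and 2.73, 2.38, 1.98 and 1.64 in wild type, so 3 knockouts were at the floor and no wild type was.

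NR4A receptors are immediate early genes, switched on within minutes of a stimulus and needing no ligand. Nr4a1 (NUR77) was at 5.25, 6.29, 7.60, 7.19 and 5.66 in knockout and 5.35, 7.24, 4.29 and 5.07 in wild type. Both genotypes held high and low libraries, and the difference was 0.91 with an SE of 0.51 (limma adjusted p = 0.263). Egr1, another immediate early gene, was at 8.71, 10.97, 11.14, 11.45 and 8.24 in knockout and 7.55, 11.38, 6.725 and 8.345 in wild type, and the same 4 libraries, knockout 2, 3 and 4 and wild type 2, were highest for both. These 4 libraries also had the highest Rn45s shares, 10.6%, 11.6% and 14.4% in knockout 2, 3 and 4 and 11.3% in wild type 2. With Rn45s as a covariate the Nr4a1 difference was 0.06 (limma adjusted p = 0.948), with globin as a covariate it was 0.23 (limma adjusted p = 0.858), and without wild type 2 it was 1.496 (limma adjusted p = 0.0252). Nr4a2 differed by 0.41 (SE 0.58, limma adjusted p = 0.694), and Nr4a3, below the filter, was at 0.85, 2.91, 3.465, 4.27 and 3.39 in knockout and 1.795, 0.07, 0 and 2.06 in wild type. None of 12 immediate early genes was called, with a list median of 0.84 and single differences of 0.06 to 1.80; the labels give no handling or sampling times.

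**Figure D4:**
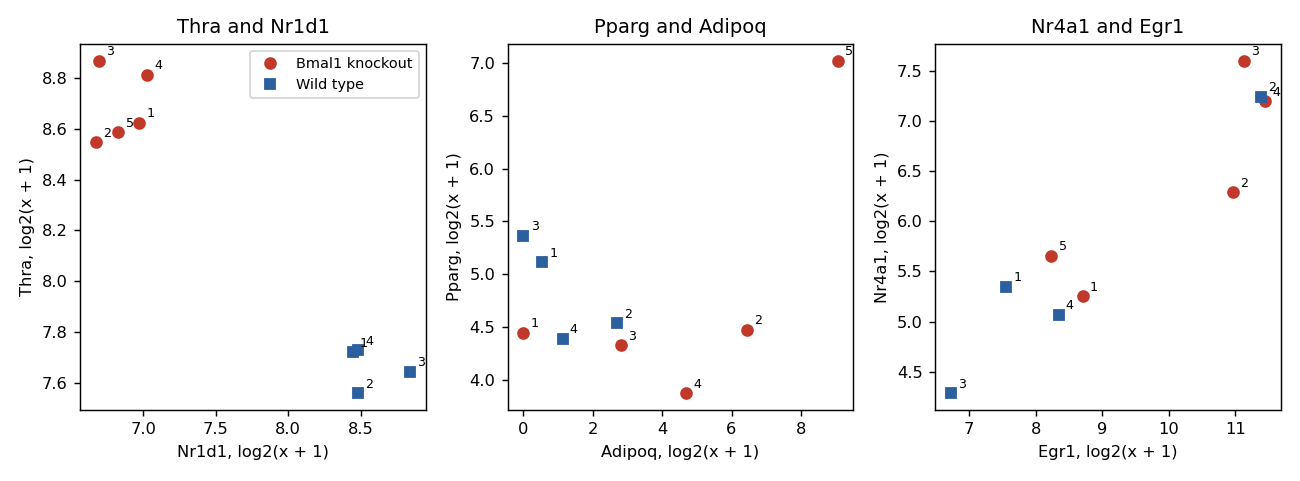
Values of 3 receptors (vertical axes) against a companion gene (horizontal axes) in each library, all as log2(x + 1); circles are knockout and squares wild-type libraries, with their replicate numbers. Thra and Nr1d1 separate the genotypes in opposite directions, Pparg is high only in knockout 5, where Adipoq is highest, and Nr4a1 and Egr1 are both highest in knockout 2, 3 and 4 and wild type 2.

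Known target and pathway genes were read from the same fit, beside 6.16% of all genes called higher, 8.2% called lower and a median of 0.00. Of 13 tested PPAR targets 6 fell and 1 rose (median -0.45). The oxidation genes Cpt1a (-0.67, SE 0.12) and Acadm (-0.71, SE 0.14) fell, while the hydroxylase Cyp4a14 rose by 3.07 (SE 0.40; limma adjusted p of at most 0.00148 for each of the 3). These targets are shared by PPARα and PPARδ, so the list does not separate them, and Acadm is also on the list for estrogen-related receptors. Of 5 tested FXR and bile acid genes 3 fell and 1 rose (median -0.64). The basolateral bile acid exporter Slc51a, an FXR target, was at 8.595, 8.03, 8.42, 7.89 and 8.03 in knockout and 9.695, 9.80, 9.86 and 9.875 in wild type, with every knockout below every wild type (-1.61, SE 0.14, limma adjusted p = 2.81e-07). The oxysterol hydroxylase Cyp7b1 (-0.87, SE 0.21) and the sterol hydroxylase Cyp27a1 (-0.64, SE 0.17) fell too, and the apical bile acid importer Slc10a2 rose by 0.84 (SE 0.17; limma adjusted p = 0.0089, 0.0144 and 0.0024).

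LXR targets were mostly without a call. Of 10 tested, Apoe, which carries lipid, rose by 0.70 (SE 0.12, limma adjusted p = 0.000658), Lpcat3, which remodels phospholipids, fell by 0.45 (SE 0.10, adjusted p = 0.00504 by limma), and the cholesterol exporter Abca1 had -0.51 (SE 0.19, limma adjusted p = 0.0758); the list median was -0.04. Of 6 tested PXR and CAR targets 2 rose and 2 fell (median -0.31). The glutathione transferase Gsta1 rose by 1.94 (SE 0.17) and the cytochrome Cyp2c55 by 2.83 from near the floor (SE 0.90), while the exporter Abcc2 (-0.79, SE 0.11) and the P450 reductase Por (-0.82, SE 0.13) fell (limma adjusted p = 3.04e-07, 0.0418, 9.22e-05 and 0.000225). Cyp2c55 was called in 9 of 21 alternatives, and 8 of the 14 listed genes were below the filter. Cyp2c55 passed the filter through knockout libraries only, so its entry to the test already depended on the knockout values.

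Thyroid hormone genes moved in both directions, 1 up and 3 down of 9 tested (median -0.21). The malic enzyme Me1 fell by 0.95 (SE 0.10), the mitochondrial glycerophosphate dehydrogenase Gpd2 by 0.64 (SE 0.14) and the transporter Slc16a10 by 0.40 (SE 0.12), with limma adjusted p of at most 0.0336. Slc16a10 was called in 9 of 22 alternatives. Dio2, a deiodinase that makes T3, was at 4.69, 3.7, 3.33, 5.45 and 5.68 in knockout and 2.58, 2.67, 0 and 3.07 in wild type, and rose by 2.49 (SE 0.68, limma adjusted p = 0.0194, called in 15 of 21 alternatives). Of 11 tested retinoid genes 3 rose and none fell (median 0.23): the retinoic acid binding protein Crabp1 (5.89, SE 0.51), the retinal dehydrogenase Aldh1a1 (0.94, SE 0.28) and the retinol importer Stra6 (1.06, SE 0.34), with limma adjusted p of 2.18e-07, 0.0308 and 0.0470. Alternatives called Aldh1a1 in 11 and Stra6 in 8 of 22 cases. Dio2 and Crabp1 reached the x of 10 that the filter asked for in knockout libraries only. Their entry to the test thus already depended on the knockout values. Their wild-type values lie near the floor, which leaves the size of both rises uncertain.

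Some targets of estrogen-related receptors, HNF4A and the estrogen receptor were called. Of 11 tested targets of estrogen-related receptors 2 fell (median -0.10), Acadm as above and cytochrome c, Cycs (-0.49, SE 0.10, limma adjusted p = 0.0019). Of 15 tested HNF4A targets 1 fell, the gluconeogenic enzyme Fbp1 (-0.38, SE 0.11, limma adjusted p = 0.0246, called in 11 of 22 alternatives), and none rose (median -0.09). Of 6 tested estrogen receptor targets 2 fell, cyclin D1, Ccnd1 (-0.82, SE 0.12), and the scaffold Pdzk1 (-0.44, SE 0.10), and Myc rose by 2.21 from low values (SE 0.66; limma adjusted p = 0.000161, 0.00478 and 0.0324). Myc was called in 10 of 21 alternatives. Of 10 tested nuclear receptors outside the 36 genes, 4 fell and 1 rose (median -0.32): Nr1d1 and Nr1d2 as given, Vdr (-0.49, SE 0.11, limma adjusted p = 0.00572) and Rorb (-2.43, SE 0.62, limma adjusted p = 0.0129) were the genes that fell. Rorb passed the filter through wild-type libraries only, so its entry to the test already depended on the wild-type values. Its knockout values lie near the floor, which leaves the size of its decrease uncertain.

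**Figure D5:**
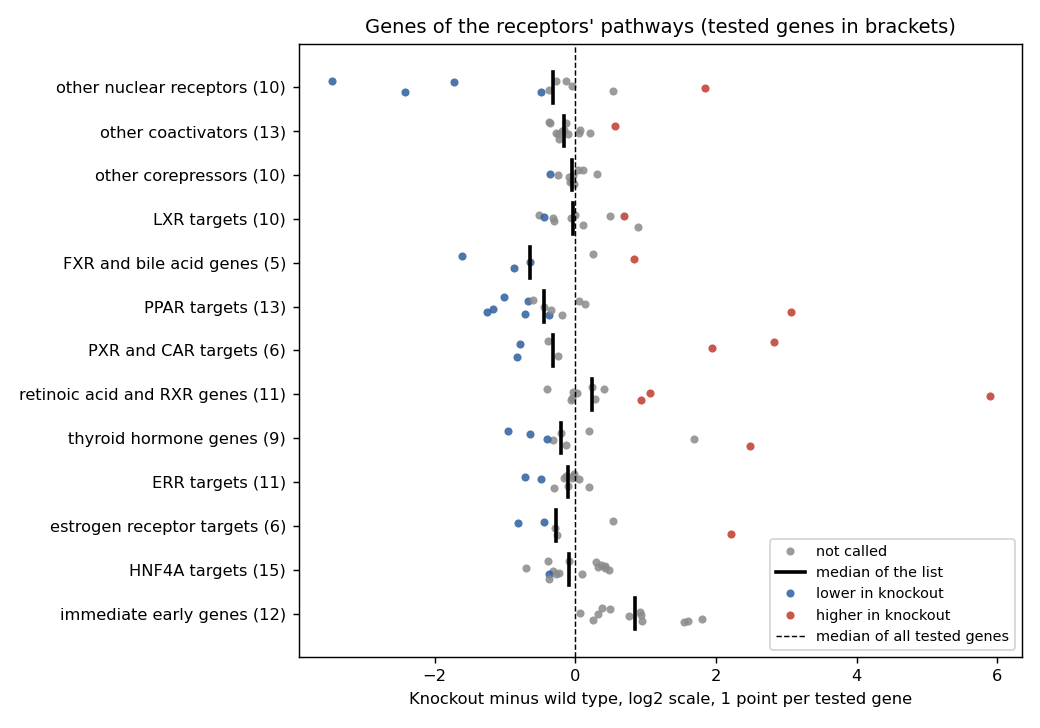
Differences between genotypes (knockout minus wild type, log2 scale, horizontal axis) of tested genes on 13 pathway lists, with 1 point per gene, a bar at each list's median and a dashed line at the median of all tested genes. The medians run from -0.64 for FXR and bile acid genes to 0.84 for immediate early genes, of which none was called.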

How the data were processed

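Total RNA from kidney, 500 ng per library, was made into 3′ mRNA libraries with the Lexogen QuantSeq kit, per the labels. Bowtie2, bedtools and build mm10 are named, per the submitters' processing notes, and counting, strand and normalization are steps not given in the sources used here. The deposited values are on a log2 scale, log2(x + 1) per gene symbol. They are not counts, so no count model was used. The 5 knockout and 4 wild-type libraries were compared with limma 3.58.1 in R 4.3.3 (variance trend, genotype as sole term, two-sided tests). Benjamini-Hochberg adjustment covered 13481 genes at a threshold of 0.05. The fit was tested on simulated data, in which 67, 67 and 66 genes were changed 1.5-fold, 2-fold and 4-fold. It recovered 26.9%, 68.7% and 87.9% of them, with 6 false calls among 128. The simulation changed far fewer genes than the 1937 called in the data, and it drew noise for each gene independently. These rates therefore do not carry over to the data. A gene without a call is not shown to be unchanged. Library measures used exact permutation.

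The genes, the 13 pathway lists and the 10 cell-type lists were chosen with earlier results of these data known. All 36 genes are named, with up to 4 genes of smallest adjusted p per pathway list and the 2 most abundant per cell-type list; Rorb, Sulf2, Adipoq and Ucp1 were chosen for naming after their values were seen, and 2 pathway genes that the rule takes are not reported here. Other marker lists (distal tubule, podocyte, macrophage, urothelium, blood) had 5 of 9, 1 of 6, 0 of 7, 5 of 6 and 0 of 7 tested genes higher, and 1 macrophage gene lower. Over all tested genes 6.16% were higher and 8.2% lower. Exon positions came from GENCODE M21 (GRCm38, the assembly of mm10). Alternatives covered filter, pseudocount, scaling, variance model, covariates, left-out libraries and a replicate block.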

Additional observations from a re-analysis of the deposited data

Results flagged for a closer look

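Among 64 groups (32 tested genes in each genotype), 3 held a library whose gap to the nearest other library was large for the range of its group (Dixon's test; chance gives about 1 group in 20). Pparg in knockout 5 was at 7.02, against 3.875 to 4.475 in the other knockouts. Adipoq and Ucp1 were highest in the same library, and their part in the value was not tested. Nr0b2, the repressor SHP, was at 4.79 in knockout 1, against 4.15 to 4.33 in the other knockouts. In wild type 2 it was at 3.25, against 4.11 to 4.15 in the other wild types, which is close to the x of 10 that the filter asked for.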

How the results depend on the processing

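Across 22 alternatives, no called gene changed direction, and Thra, Ppard and Nr1i2 were called in each of them. The number of genes higher in knockout was 3 as deposited and 3 or 4 elsewhere, Esrrb or Nr4a1 being the fourth. The number lower was 5 as deposited, 2 with scaling to the library total, 1 with scaling to the total without Rn45s, 3 with upper-quartile scaling, 2 with quantile normalization, 2 without a variance trend, 2 with Rn45s as a covariate and 2 with globin as a covariate. Leaving out 1 library gave 2 to 7 genes lower. Over all genes 1937 were called, and 1209 with globin as a covariate, the cause of which was not tested; the other alternatives stayed within 1.5 times. The labels number replicates in both genotypes, but same-numbered libraries correlated at -0.00701 to 0.151 in their deviations from the group means, and 2 of the 4 wild types correlated best with their own number, so the numbers were not taken as pairs. With a replicate block over numbers 1 to 4, 3 genes were higher and 5 lower, and 1739 genes were called in all. Raw depth is unknown, so no counting interval is given, and Nr1i3, Nr5a2, Nr4a3 and Rxrg entered the fit with no filter only, where none was called.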
